A study of Homo sapiens with 24 samples.

Results

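RPRD1A, RPRD1B, RPRD2, PCF11, SCAF4 and SCAF8 are 6 human genes that encode proteins with a CTD-interaction domain. They were taken by gene name from the deposited counts, out of 25731 gene names with at least 1 count in the series. All 6 passed the filter on low counts in both cell lines, which left 11834 genes for testing in HEK293T and 11948 in Flp-In T-REx 293. RNA was read from the 3′ ends of transcripts with the QuantSeq REV kit in 24 libraries, which form 12 groups of 2. HEK293T cells, a human embryonic kidney line, received siRNAs for 48 h in 8 groups: a control, the single knockdowns (KD) RPRD2_KD, RPRD1B_KD and RPRD1A_KD, the combinations RPRD1B_RPRD2_KD and RPRD1A_RPRD2_KD, the triple RPRD1A_RPRD1B_RPRD2_KD, and RPRD1A_RPRD1A_KD. The group labelled RPRD1A_RPRD1A_KD names RPRD1A in both places and was kept as labelled. The remaining 4 groups are Flp-In T-REx 293 cells, made from embryonic kidney 293 cells for tetracycline-driven expression from one genomic site. FLP and RPRD1B_FL were untreated, and FLP_TET and RPRD1B_FL_TET are their counterparts given tetracycline for 48 h. The labels name no construct, do not explain FL and do not say whether the cells titled RPRD1B_FL are a single clone, and they are called the RPRD1B_FL line here from their titles only. Nothing in the labels says that samples of a group came from separate cultures, so p-values measure the spread between these samples, which may be technical.

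The CTD is the long repetitive tail of the largest subunit of RNA polymerase II. Kinases and phosphatases write and erase marks on it during transcription, and proteins with a CTD-interaction domain read those marks. RPRD1A and RPRD1B are small paralogous CTD-binding scaffolds found with the phosphatase RPAP2, and RPRD2 is a larger relative. PCF11 is a subunit of cleavage factor II, which acts in cutting the transcript and releasing the polymerase at gene ends. SCAF4 and SCAF8 are paralogous CTD-binding RNA-binding proteins that hold back early termination. The question followed here is whether the members that were not targeted had other transcript levels where RPRD genes were lowered or RPRD1B was raised.

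An siRNA finds its transcript by base pairing, so an siRNA aimed at a stretch shared by members could not tell their transcripts apart there. Only the longest coding sequence of each gene was compared, and untranslated regions and shorter partial matches to an siRNA were not searched. The siRNA sequences were not used here. Coding sequences were taken from GENCODE 29 on GRCh38, with lengths of 936 bases for RPRD1A, 978 for RPRD1B, 4383 for RPRD2, 4665 for PCF11, 3441 for SCAF4 and 4047 for SCAF8. RPRD1A and RPRD2 shared a run of 21 bases, and this run is printed beside the best match in RPRD1B, with capitals at the bases that differ from it.
RPRD1A: gccaatgatgtcatacagaac
RPRD2: gccaatgatgtcatacagaac
RPRD1B: gcGaatgatgtcatCcaAaac
The run lies in exons at chr18:36033782-36033802 (minus strand) for RPRD1A and at chr1:150417631-150417651 (plus strand) for RPRD2. The RPRD1B window, at chr20:38040470-38040490 (plus strand), was identical at 18 of the 21 bases and starts at the same coding base, 187, as in RPRD1A.

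RPRD1A and RPRD1B shared a longest run of 19 bases, at chr18:36067367-36067385 (minus strand) and chr20:38033967-38033985 (plus strand), which starts at coding base 20 in both.
RPRD1A and RPRD1B: cggcgctggagaagaagct
SCAF4 and SCAF8 shared a longest run of 18 bases.
SCAF4 and SCAF8: attaatatgattcctccc
Counted over windows of 19 bases, RPRD1A and RPRD2 shared 3, RPRD1A and RPRD1B shared 1, and no other pair of the members shared any. The best match to the 21-base run was 14 of 21 bases in PCF11, 14 in SCAF4 and 13 in SCAF8.

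The positions of the genes bear on how their reads were counted, and are given from GENCODE 29 on GRCh38. RPRD1A (ENSG00000141425) lies at chr18:35984387-36067576 on the minus strand and RPRD2 (ENSG00000163125) at chr1:150363091-150476566 on the plus strand, and no other annotated gene overlaps either. RPRD1B (ENSG00000101413) lies at chr20:38033546-38127780 on the plus strand, and its 3′ end is covered by TGM2 on the other strand. PCF11 (ENSG00000165494) lies at chr11:83156988-83187451 on the plus strand, with the antisense AP000873.2 over its 3′ end. PCF11 is also overlapped by AP000873.4 on the same strand and by PCF11-AS1 on the other. SCAF4 (ENSG00000156304) lies at chr21:31671033-31732075 on the minus strand. SCAF8 (ENSG00000213079) lies at chr6:154733325-154834244 on the plus strand, with TIAM2 on the same strand over its 3′ end. The strand setting of the counting is not given in the sources used here, so reads near the ends of RPRD1B, PCF11 and SCAF8 may be shared with these genes or left out as ambiguous. Where AP000873.4 overlaps PCF11 and TIAM2 overlaps SCAF8, on the same strand, reads may be ambiguous under any strand setting.

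HEK293T libraries held 1817246 to 3135625 counts in genes and Flp-In libraries 2342969 to 3531106. At these depths 3 counts, the floor of detection used here, equal 0.85 to 1.65 CPM (counts scaled to a common library size), and this floor covers counting error only. The second RPRD1A_RPRD2_KD library stood apart from the other 15 HEK293T libraries, at 51.25 on the first principal component (29.1% of the variance) against -11.35 to 3.02. On the next component every other library numbered 1 was above 0 and every one numbered 2 below. VIM and KRT18, expressed in 293 cells, were detected in every group, while CD3E, COL1A2 and DCN were at 0 counts in every library, and the leukocyte gene PTPRC and the liver gene ALB reached at most 1 count. COL1A1, a fibroblast marker, was detected in every library with at most 42 counts, and its part in the results was not tested.

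Levels of the members were scaled to library size over all 24 libraries and are given in CPM. A 3′ kit yields about 1 read position per transcript, so CPM values were not divided by length. In the control siRNA group RPRD1A was at 154.6 ± 10.4 CPM, RPRD2 at 96.3 ± 4.75 CPM, SCAF8 at 44.2 ± 4.79 CPM, PCF11 at 40.75 ± 2.16 CPM, RPRD1B at 27.2 ± 0.51 CPM and SCAF4 at 26.5 ± 0.96 CPM (SD, n = 2 for each). Members with few reads carry more counting error: SCAF4 had 28 to 87 counts per library and RPRD1B 8 to 234, against 35 to 364 for RPRD1A. In FLP, without tetracycline, RPRD1A was at 56.85 ± 10.1 CPM, RPRD2 at 64.2 ± 0.81 CPM, RPRD1B at 35.9 ± 0.18 CPM, SCAF8 at 33.4 ± 9.02 CPM, PCF11 at 29.9 CPM in both libraries and SCAF4 at 24.5 ± 0.15 CPM (SD, n = 2). The 2 cell lines were not tested against each other.

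**Figure D1:**
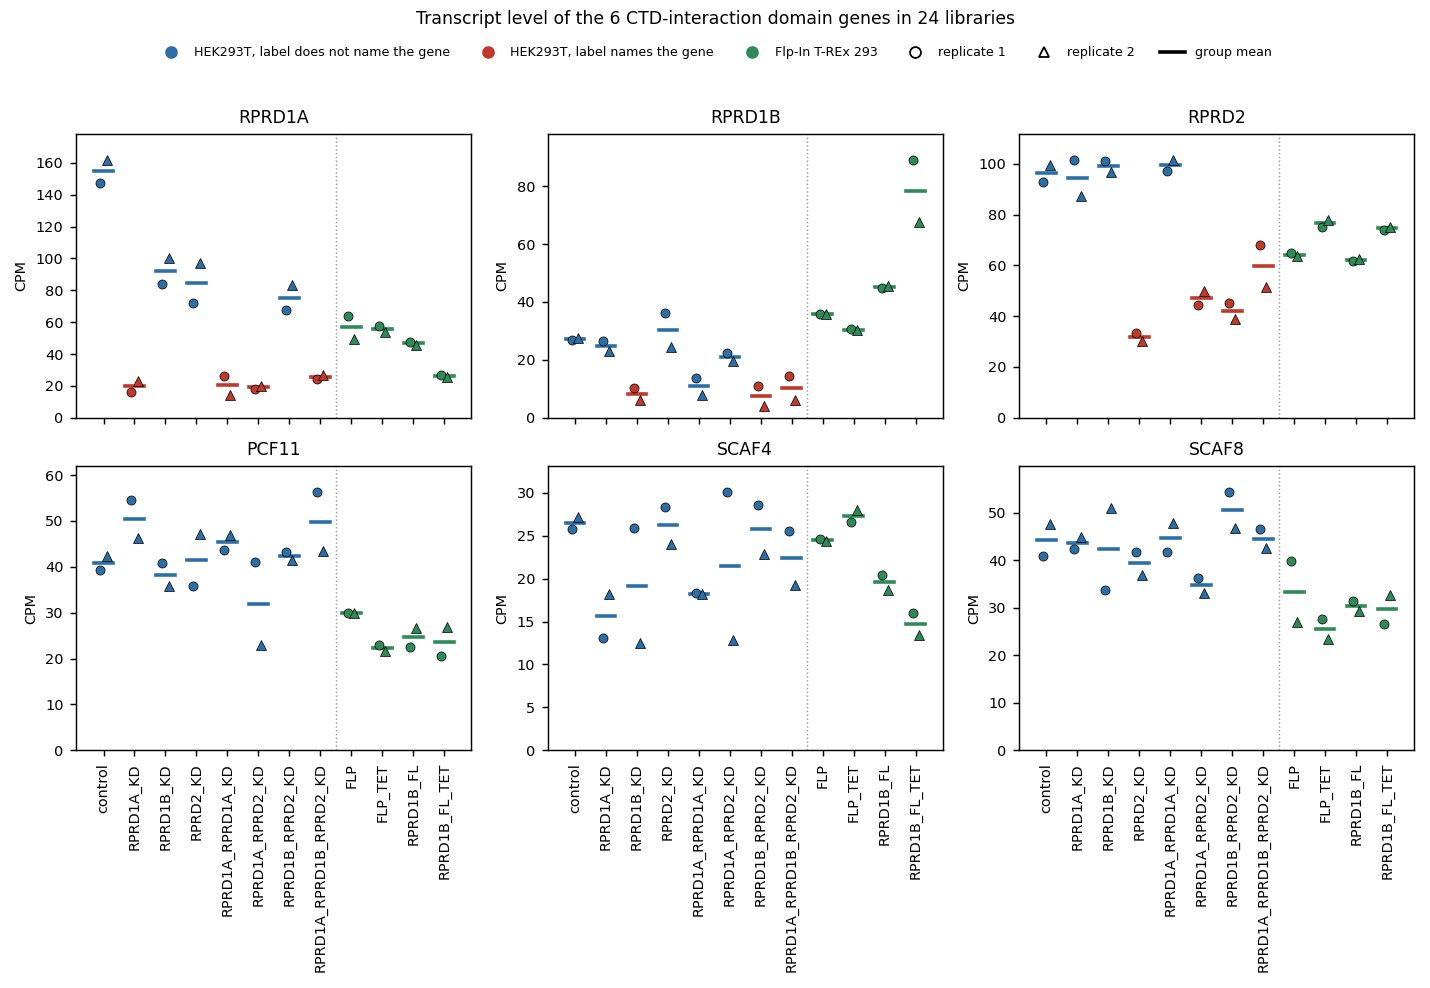
Transcript level in CPM (vertical axes, from 0) of the 6 members in each of 24 libraries, by group (horizontal axis), with circles for replicate 1, triangles for replicate 2 and lines for group means. Red marks HEK293T groups whose label names the gene. RPRD1A in the blue silenced groups sits at 67.6 to 100.5 CPM, below both controls at 147 and 162 CPM, and SCAF4 has its lowest Flp-In values in RPRD1B_FL_TET.

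The targeted members were low where their labels say so. RPRD1A stood at 16.3 and 22.97 CPM in RPRD1A_KD, RPRD1B at 10.2 and 6.09 CPM in RPRD1B_KD, and RPRD2 at 33.4 and 30.3 CPM in RPRD2_KD. In bulk samples, fewer cells with the transcript and less transcript per cell cannot be told apart. The silencing of RPRD2 was less deep in combination: the triple group had 59.7 ± 11.8 CPM (SD, n = 2), which is 62.0% of the control mean, and RPRD2_KD 33.1%. RPRD1B was also low in the group labelled RPRD1A_RPRD1A_KD, with 13.7 and 7.96 CPM, or 39.8% of the control, which lies beside the 37.8% in RPRD1A_RPRD1B_RPRD2_KD. This level goes against a label that names RPRD1A only, and results on RPRD1B are therefore also given without that group.

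PCF11, SCAF4 and SCAF8, which no siRNA label names, were called in none of the 7 comparisons of a silenced group with the control (edgeR's quasi-likelihood test, called at an adjusted p under 0.05 over all tested genes). Calls were rare among all genes too: 0.00845% of the tested genes were called in each of RPRD1A_KD, RPRD1B_KD, RPRD2_KD and RPRD1A_RPRD2_KD, and 0.0169% in each of RPRD1A_RPRD1A_KD, RPRD1B_RPRD2_KD and RPRD1A_RPRD1B_RPRD2_KD. The called members were RPRD1A in the 4 groups that name it and RPRD2 in RPRD2_KD and RPRD1B_RPRD2_KD. RPRD1B was not called in any group that names it, so a fall of a targeted gene could go without a call. Its log2 fold changes were -1.77 (SE 0.42) in RPRD1B_KD, -1.8 (SE 0.43) in RPRD1B_RPRD2_KD and -1.45 (SE 0.42) in RPRD1A_RPRD1B_RPRD2_KD (edgeR's adjusted p 0.9999, 0.9999 and 0.9998). Nor was RPRD2 called at -1.06 in RPRD1A_RPRD2_KD or at -0.71 in RPRD1A_RPRD1B_RPRD2_KD (edgeR's adjusted p 0.12 and 0.89). The RPRD2 call in RPRD1B_RPRD2_KD was lost when any of the 4 compared libraries was left out (adjusted p 0.25 to 0.9992), and that in RPRD2_KD without either RPRD2_KD library (0.065 and 0.17). With so few calls anywhere, the width of the intervals says more than the absence of a call. DESeq2 also called none of PCF11, SCAF4 and SCAF8 there.

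PCF11 stood at 39.2 and 42.3 CPM in the control libraries, and at 23.04 to 56.3 CPM (median 43.3) in the 14 silenced libraries. Of these 14, 8 were above both controls and 3 below both. The share of all tested genes with such counts was not computed for PCF11, SCAF8 or RPRD2. The lowest value, 23.04 CPM, belonged to the second RPRD1A_RPRD2_KD library, the one that stood apart. The first library of that group was at 40.95 CPM. Over the 7 groups the log2 fold change of PCF11 against the control ranged from -0.41 in RPRD1A_RPRD2_KD to 0.28 in RPRD1A_KD. The mean of the 7 was 0.03 (SE 0.19), with a 95% interval from -0.38 to 0.44. In the group with all 3 RPRD genes named, PCF11 was at 56.3 and 43.4 CPM, a log2 fold change of 0.27 (SE 0.25, interval -0.26 to 0.80).

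SCAF8 stood at 40.8 and 47.6 CPM in the control libraries, and at 33.2 to 54.35 CPM (median 42.5) in the silenced ones. The silenced libraries lay on both sides, with 4 below and 3 above both controls. The extremes were RPRD1B_RPRD2_KD, at 54.35 and 46.8 CPM, and RPRD1A_RPRD2_KD, at 36.3 and 33.2 CPM. Their log2 fold changes were 0.18 and -0.39, and neither was called. The mean of the 7 groups was -0.07 (SE 0.16, interval -0.41 to 0.26). For SCAF8 and PCF11 a mean change of more than 0.44 on the log2 scale in either direction thus lay outside the 95% interval.

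SCAF4, the partner of SCAF8 in restraining early termination, had a log2 fold change below 0 in all 7 comparisons, from -0.76 to -0.03, and none was called. The control libraries were close together, at 25.8 and 27.1 CPM. Of the 14 silenced libraries 10 lay below both controls and 3 above both, over a range of 12.5 to 30.1 CPM (median 21.05). How many of all tested genes have as many libraries outside their controls was not computed, nor how many share a sign in all 7 comparisons. The 7 comparisons share the 2 control libraries, so their common sign rests on those 2 values. The sign changed when single libraries were left out in RPRD2_KD (-0.16 to 0.10), RPRD1A_RPRD2_KD (-1.1 to 0.20) and RPRD1B_RPRD2_KD (-0.23 to 0.10).

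The lowest mean SCAF4 levels were in RPRD1A_KD, the group labelled RPRD1A_RPRD1A_KD and RPRD1B_KD, and the libraries of some groups disagreed. RPRD1A_KD had 13.1 and 18.2 CPM, from 28 and 54 counts. The group labelled RPRD1A_RPRD1A_KD had 18.3 and 18.2 CPM. RPRD1B_KD had 25.8 and 12.5 CPM, so its first library lay between the controls and its second was at 46.1% of the control with the same number. RPRD1A_RPRD2_KD was split in the same way, with 30.1 CPM in the first library and 12.9 CPM in the library that stood apart. In RPRD2_KD (28.4 and 24.01 CPM) and RPRD1B_RPRD2_KD (28.6 and 22.9 CPM) the values spanned the controls. In RPRD1A_RPRD1B_RPRD2_KD, with 25.6 and 19.2 CPM, both libraries were below the lower control.

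By test, SCAF4 in RPRD1A_KD had a log2 fold change of -0.76 (SE 0.38, interval -1.57 to 0.05; p 0.063, adjusted p 0.9997). The mean of the 7 groups was -0.36 (SE 0.28), with an interval from -0.95 to 0.23 that is wider than those of PCF11 and SCAF8. The 4 groups that name RPRD1A were also compared with the 4 that do not, the control among them. There SCAF4 was at -0.35 (SE 0.19, interval -0.74 to 0.05; adjusted p 0.9999), where 0.0676% of the tested genes were called, 0.0507% lower. PCF11 and SCAF8 were at 0.09 (SE 0.13) and -0.09 (SE 0.10) there, and of the members RPRD1A itself was called. In RPRD1A_KD the 5 tested genes on either side of it on chromosome 21 had a median log2 fold change of 0.04 (-0.67 to 0.74). At this depth a fall of SCAF4 by as much as 0.95 on the log2 scale, or a rise of 0.23, lies within the interval for the mean of the 7 groups.

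**Figure D2:**
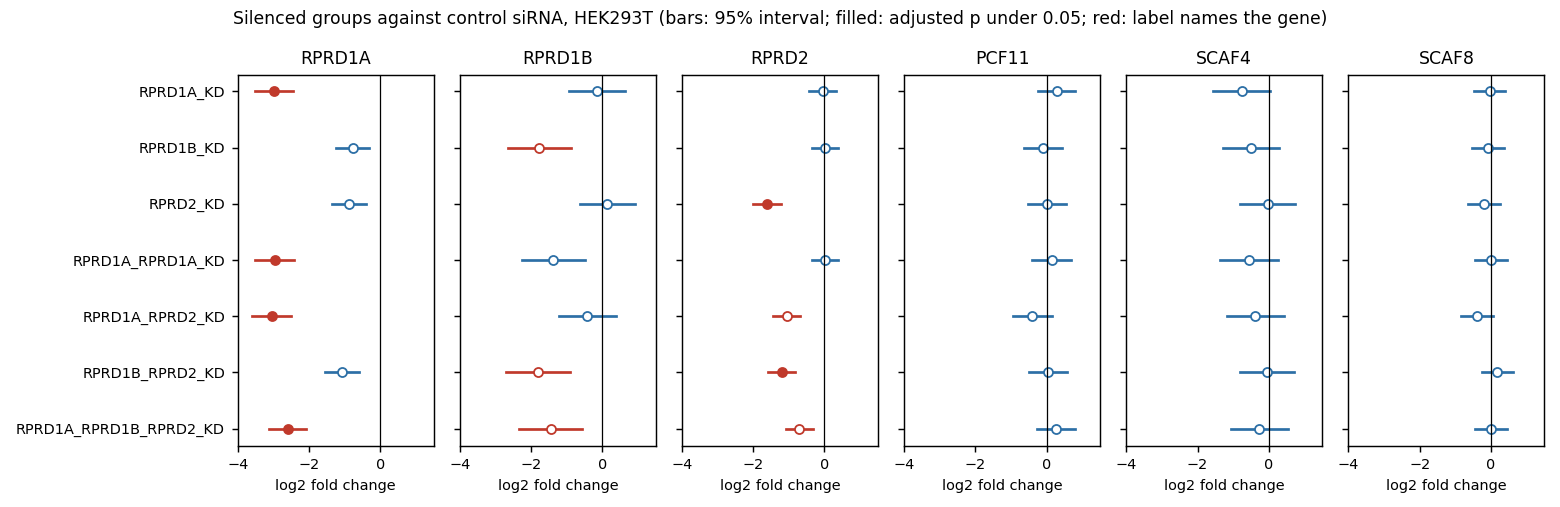
Log2 fold change against control siRNA (horizontal axes) of the 6 members in the 7 silenced groups (vertical axis), with 95% intervals from edgeR's quasi-likelihood fit. Filled points have an adjusted p under 0.05. Intervals of PCF11, SCAF4 and SCAF8 all cross 0, and those of RPRD1A lie below 0 also in the 3 groups that do not name it.

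Among the RPRD genes themselves, RPRD1A lay below both controls in every silenced library whose label does not name it. Its levels were 83.7 and 100.5 CPM in RPRD1B_KD, 72.2 and 97.2 CPM in RPRD2_KD, and 67.6 and 83.4 CPM in RPRD1B_RPRD2_KD. All 6 of these libraries lay below both controls, at 147 and 162 CPM, and the same held for 3% of all tested genes. Against the control with the same replicate number, the 6 libraries were at 45.9% to 62.0%. Taken over the 3 groups together, a comparison added after the data were seen, the log2 fold change was -0.90 (SE 0.17, interval -1.27 to -0.54; p 7.66e-05). Its adjusted p was 0.27, so RPRD1A was not called, and 0.0169% of the tested genes were. It was called in that comparison without a filter on low counts (adjusted p 0.0037) and with the replicate number as a block. The values with the block are given at the end, since the replicate numbers were not taken as pairs. DESeq2 gave an adjusted p of 0.057.

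The low RPRD1A level was not shared by its chromosome. In RPRD1B_RPRD2_KD the median of the 163 tested genes on chromosome 18 was 0.05 on the log2 scale, and that of the 10 nearest tested genes was -0.13 (-0.49 to 0.13), against -1.06 for RPRD1A. All 6 unnamed libraries were compared with the same 2 controls. In the 3 groups that name RPRD1B against the 5 that do not, the control among them, the log2 fold change of RPRD1A was 0.50 (SE 0.13). RPRD1A is itself named in 1 of 3 groups on one side and in 3 of 5 on the other, and it was not called (adjusted p 0.996), while 0.00845% of the tested genes were.

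RPRD2 held its level where it was not named. In the 6 libraries of RPRD1A_KD, RPRD1B_KD and RPRD1A_RPRD1A_KD it was at 87.2 to 102 CPM (median 99.15), around the controls at 92.95 and 99.7 CPM. Of these, 1 lay below both controls and 3 above both. The log2 fold change over the 3 groups was -0.01 (SE 0.14), with an interval from -0.30 to 0.29. This is the narrowest interval of the 3 RPRD genes in groups that do not name them.

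RPRD1B, a gene of low counts, was less settled. It was at 26.6 and 22.97 CPM in RPRD1A_KD, 36.3 and 24.4 CPM in RPRD2_KD and 22.3 and 19.65 CPM in RPRD1A_RPRD2_KD, against 26.9 and 27.6 CPM in the control. Of the 8 libraries that do not name it, 7 lay below both controls and 1 above both. The 7 include both libraries of the group labelled RPRD1A_RPRD1A_KD, at 13.7 and 7.96 CPM. Without that group, the RPRD1A_KD and RPRD1A_RPRD2_KD libraries and the second RPRD2_KD library lay below both controls. The first RPRD2_KD library lay above both. The controls were close together here too, and the share of all tested genes with such counts was not computed. Over these 4 groups the log2 fold change was -0.45 (SE 0.30, interval -1.08 to 0.17; adjusted p 0.9998). Without the group labelled RPRD1A_RPRD1A_KD it was -0.15 (SE 0.30). The value over 4 groups thus rests in large part on that group, in which RPRD1B stood at 39.8% of the control.

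Adding the members up describes their joint level, scaled to library size and not as an amount per cell. The 3 RPRD genes summed to 278 ± 15.7 CPM in the control, 95.6 ± 16.01 CPM in RPRD1A_RPRD1B_RPRD2_KD and 87.2 ± 3.13 CPM in RPRD1A_RPRD2_KD (SD, n = 2). PCF11, SCAF4 and SCAF8 summed to 111 ± 7.91 CPM in the control, 117 ± 16.4 CPM in RPRD1A_RPRD1B_RPRD2_KD and 88.2 ± 27.0 CPM in RPRD1A_RPRD2_KD, where the 2 libraries differed. By library this second sum was 105.8 and 117.0 CPM in the control and 128.4 and 105.2 CPM in RPRD1A_RPRD1B_RPRD2_KD, so 1 library of that group lay above both controls and 1 below both.

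RPRD1B was raised in the Flp-In cells. It was at 36.0 and 35.7 CPM in FLP, 30.6 and 30.3 CPM in FLP_TET, 44.8 and 45.5 CPM in RPRD1B_FL, and 89.2 and 67.5 CPM in RPRD1B_FL_TET. The 4 groups did not overlap. The kit reads 3′ ends, so RPRD1B transcripts without the annotated 3′ sequence would not be counted.

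Under tetracycline, 2 of the 6 members differed between the RPRD1B_FL line and FLP cells: RPRD1B was higher and RPRD1A lower, while 1.11% of all tested genes were called. RPRD1B rose by 1.34 on the log2 scale (SE 0.19, adjusted p 0.00032). RPRD1A, its closest paralog, was at 27.1 and 25.5 CPM in RPRD1B_FL_TET against 57.6 and 54.0 CPM in FLP_TET. It fell by 1.11 on the log2 scale (SE 0.20, interval -1.52 to -0.69, adjusted p 0.0046). The other 177 tested genes of chromosome 18 had a median of -0.26 there, and its 10 neighbours one of -0.23 (-0.43 to 0.36). Of the chromosome's genes 4.52% were at or below RPRD1A. Without tetracycline the chromosome's median was -0.28 and that of the neighbours -0.34, with RPRD1A at -0.27 (SE 0.19). The part of the chromosome in the RPRD1A fall was not tested. The correlation of GC content with a library's deviation ran from -0.52 to 0.56 over the Flp-In libraries. With a correction for it, RPRD1A was at -1.09 and RPRD1B at 1.35 in RPRD1B_FL_TET against FLP_TET. Of 7 tested genes typical of 293 cells, 6 were below 0 in the same comparison, with a median of -0.42 and a range from -1.46 for PAX2 to 0.04 for KRT18. The neurofilament gene NEFL was the 1 called, at -0.66 (SE 0.16), and it was called in RPRD1B_FL against FLP too, at -0.79 (SE 0.16), but each call was lost in 3 of the 4 fits that left out 1 compared library. The part of these genes in the results was not tested. The RPRD1A call was lost without either FLP_TET library, with adjusted p of 0.13 without the first and 0.069 without the second.

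Of the members outside the RPRD family, SCAF4 was the one whose level was lower in RPRD1B_FL_TET. It stood at 16.01 and 13.4 CPM there, against 26.65 and 28.0 CPM in FLP_TET, 20.4 and 18.7 CPM in RPRD1B_FL and 24.6 and 24.4 CPM in FLP. Both RPRD1B_FL_TET libraries were below all 6 other Flp-In libraries, as were those of 4.49% of the tested genes. They were below both FLP_TET libraries for 18.1% of the tested genes. The log2 fold change against FLP_TET was -0.91 (SE 0.23, interval -1.39 to -0.42), with an adjusted p of 0.062, so SCAF4 was not called. It was called without a filter on low counts (adjusted p 0.040), with a correction for GC content (0.027) and when only the 2 compared groups were fitted (0.049). DESeq2 gave an adjusted p of 0.26.

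SCAF4 lies on chromosome 21, whose genes were low as a whole in the RPRD1B_FL line. Under tetracycline the median log2 fold change of the 104 tested chromosome 21 genes was -0.70, and 33 of them were called lower. The 10 tested genes nearest to SCAF4 were all below 0, with a median of -0.73 and a range from -1.14 to -0.38. The value of SCAF4, -0.91, is thus within the range of its neighbours, and 22.1% of the chromosome's tested genes were at or below it. Without tetracycline the chromosome's median was -0.74 and that of the neighbours -0.90, while SCAF4 was at -0.32 (SE 0.22, adjusted p 0.57). There 88.5% of the chromosome's genes were at or below SCAF4. Whether its level under tetracycline goes with RPRD1B or with its chromosome cannot be told apart in a comparison of the 2 lines.

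A comparison within the RPRD1B_FL line removes the difference between the lines. With against without tetracycline, SCAF4 had a log2 fold change of -0.43 (SE 0.25, interval -0.94 to 0.08; adjusted p 0.79), and the median of chromosome 21 was 0.02 and of the neighbours 0.11. RPRD1A was at -0.85 (SE 0.21, interval -1.27 to -0.42; adjusted p 0.44), against a median of -0.05 over chromosome 18. RPRD1B was at 0.77 (SE 0.18, adjusted p 0.40). No member was called, and 0% of all tested genes were, by edgeR or by DESeq2, while 733 genes had an unadjusted p under 0.05 in edgeR. In FLP cells tetracycline left SCAF4 at 0.16 (SE 0.21) and RPRD1A at -0.01 (SE 0.18), where 1.02% of the tested genes were called and none of the members was. The tetracycline effect in the RPRD1B_FL line minus that in FLP cells was -0.59 for SCAF4 (SE 0.33, interval -1.27 to 0.08), -0.84 for RPRD1A (SE 0.27, interval -1.41 to -0.27) and 1.00 for RPRD1B (SE 0.27, interval 0.44 to 1.56). None of these differences was called (edgeR's adjusted p 0.99 for each), and 0% of all tested genes were, by edgeR or DESeq2, while 477 genes had an unadjusted p under 0.05 in edgeR.

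**Figure D3:**
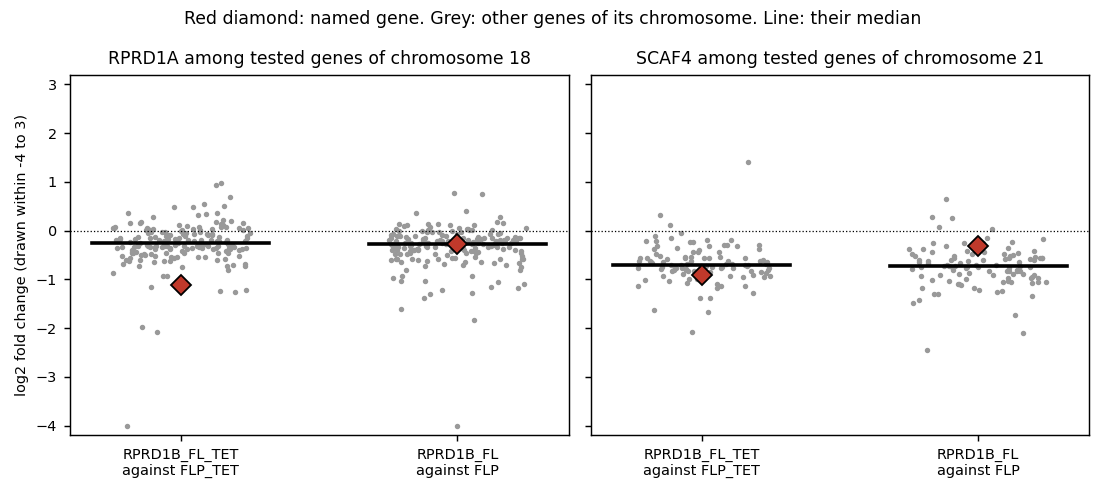
Log2 fold change (vertical axis, values beyond the range drawn at its edge) of the tested genes on chromosomes 18 and 21 between the RPRD1B_FL line and FLP cells, with tetracycline (left in each panel) and without (right). Red diamonds are RPRD1A and SCAF4, grey points the other genes and lines their median. RPRD1A is below most of chromosome 18 with tetracycline, at -1.11, and near the median without, at -0.27, while SCAF4 goes from -0.32 to -0.91 on a chromosome whose median is near -0.7 in both.

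PCF11, SCAF8 and RPRD2 did not differ detectably with raised RPRD1B. PCF11 was at 20.6 and 26.8 CPM in RPRD1B_FL_TET against 22.97 and 21.7 CPM in FLP_TET, and the log2 fold change was 0.05 (SE 0.23, interval -0.42 to 0.53). SCAF8 was at 26.7 and 32.6 CPM against 27.6 and 23.4 CPM, a log2 fold change of 0.19 (SE 0.23, interval -0.30 to 0.67). RPRD2 was at 73.9 and 75.1 CPM against 75.05 and 78.0 CPM, a log2 fold change of -0.06 (SE 0.16, interval -0.40 to 0.28). The RPRD2 libraries nearly coincide, while those of PCF11 and SCAF8 overlap between the groups. Without tetracycline none of the 6 members was called between the lines, where 1.18% of the tested genes were. With against without tetracycline in FLP cells, PCF11 was at -0.41 (SE 0.22, interval -0.86 to 0.04) and SCAF8 at -0.37 (SE 0.23, interval -0.83 to 0.10), and neither was called. RPRD2 libraries lay higher with tetracycline in both lines, from 63.6 to 64.8 CPM in FLP to 75.05 to 78.0 CPM in FLP_TET and from 61.6 to 62.6 CPM in RPRD1B_FL to 73.9 to 75.1 CPM in RPRD1B_FL_TET. Those groups do not overlap, but the share of all tested genes separated in this way was not computed for these comparisons. The 18.1% given above is for lower levels in RPRD1B_FL_TET against FLP_TET, so it is no background for them. In edgeR, 2711 genes had an unadjusted p under 0.05 in FLP_TET against FLP. The number was 733 in RPRD1B_FL_TET against RPRD1B_FL and 1236 in RPRD1B_FL_TET against FLP_TET. The RPRD2 log2 fold changes with tetracycline, 0.26 (SE 0.16) in FLP cells and 0.24 (SE 0.17) in the RPRD1B_FL line, were not called.

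**Figure D4:**
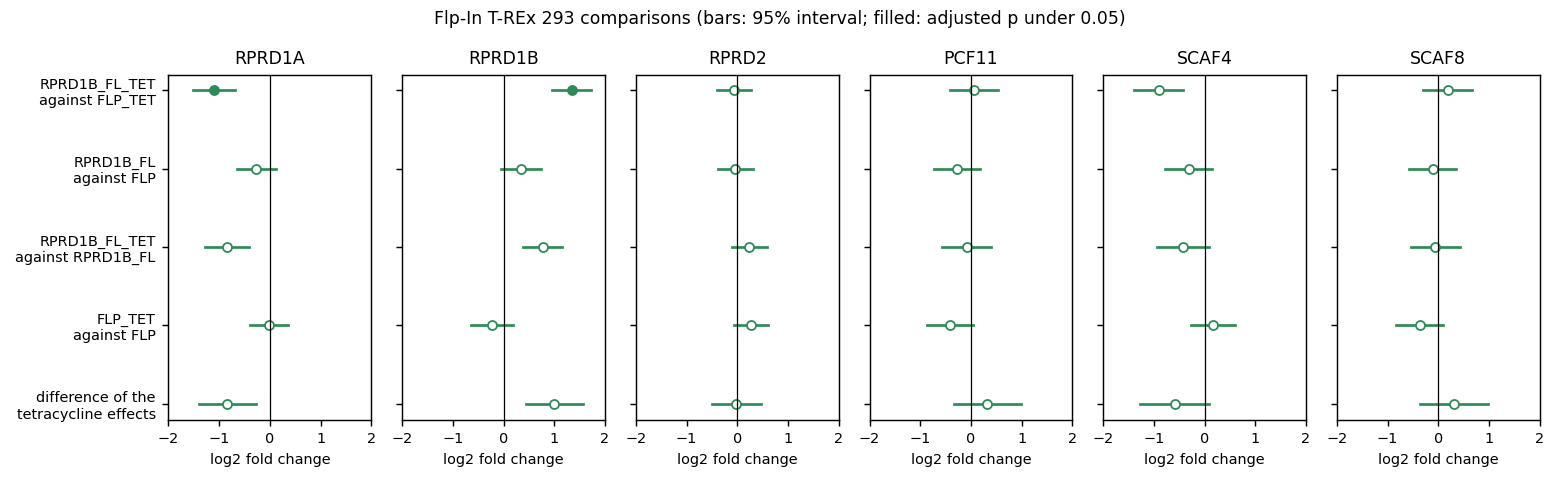
Log2 fold change (horizontal axes) of the 6 members in 5 Flp-In comparisons (vertical axis), with 95% intervals from edgeR's quasi-likelihood fit. Filled points, RPRD1A and RPRD1B in RPRD1B_FL_TET against FLP_TET, have an adjusted p under 0.05. The SCAF4 interval in that row lies below 0 but its adjusted p is 0.062.

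Over all 12 groups the order of the means gives a further description of each member. For SCAF4 each group overlapped the next in the order of means, from 27.3 ± 0.94 CPM in FLP_TET to 14.7 ± 1.84 CPM in RPRD1B_FL_TET (SD, n = 2). For SCAF8, 10 of 11 neighbours in the order overlapped, from 50.6 ± 5.34 CPM in RPRD1B_RPRD2_KD to 25.5 ± 2.97 CPM in FLP_TET. For PCF11, 9 of 11 overlapped, from 50.5 ± 5.89 CPM in RPRD1A_KD to 22.4 ± 0.88 CPM in FLP_TET. All 4 Flp-In groups had lower mean levels of PCF11 and SCAF8 than any HEK293T group. Cell line, siRNA transfection and library set cannot be told apart in that contrast. For RPRD1A 7 of 11 neighbours overlapped, with a gap between the control and the next group, RPRD1B_KD at 92.1 ± 11.85 CPM. For RPRD2 and RPRD1B, 6 and 5 of 11 overlapped.

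CHERP and U2SURP are the other genes with a CTD-interaction domain that were followed, and both encode proteins that work with the splicing machinery. In the mean of the 7 silenced groups CHERP had a log2 fold change of 0.04 (SE 0.12) and U2SURP one of 0.04 (SE 0.11). In RPRD1B_FL_TET against FLP_TET they were at 0.21 (SE 0.16) and -0.20 (SE 0.21). Neither was called in any comparison. The CHERP mean over the silenced groups ranged from -0.06 to 0.14 when single libraries were left out, so its sign is not settled.

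The enzymes that write and erase the CTD marks were described as lists chosen with earlier results known. In the mean of the 7 silenced groups, where 0.0169% of the tested genes were called, none of 12 CTD kinase and cyclin genes, 6 CTD phosphatase genes, 11 tested subunits of RNA polymerase II and 18 cleavage and termination genes was. Their median log2 fold changes were 0.03, -0.02, -0.09 and -0.01. CTDP1, the phosphatase that recycles the polymerase, was at -0.42 (SE 0.16), and POLR2E, a subunit shared by the nuclear polymerases, at -0.22 (SE 0.13). Leaving out 1 control library moved CTDP1 to -0.10 (without the second) and POLR2E to -0.04 (without the first). CDK9, the kinase of P-TEFb, was at 0.39 (SE 0.36), and CSTF2, a cleavage stimulation factor subunit, at 0.42 (SE 0.24), which became 0.03 without the first control library and 1.03 without the second. The members' own median in that comparison was -0.51, with the targeted genes among them, against -0.01 over all tested genes.

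In RPRD1B_FL_TET against FLP_TET, 1 of the 12 kinase and cyclin genes was called, and none of the phosphatase, polymerase or cleavage genes. CDK8, the kinase of the Mediator complex, was at 27.6 ± 0.19 CPM against 13.6 ± 0.20 CPM (SD, n = 2), and it rose by 0.99 on the log2 scale (SE 0.24, adjusted p 0.043). The call was lost when any 1 of the 4 libraries was left out, and with DESeq2 (adjusted p 0.12). In FLP and RPRD1B_FL, without tetracycline, CDK8 was at 21.65 ± 0.61 and 27.5 ± 5.95 CPM, so FLP_TET was the low group. RPAP2, the phosphatase found with RPRD1A and RPRD1B, was at -0.44 (SE 0.34), POLR2K, a small polymerase subunit, at 0.18 (SE 0.20) and CSTF2T, a paralog of CSTF2, at -0.40 (SE 0.23). With single libraries left out RPAP2 ranged from -0.64 to -0.18 and POLR2K from 0.04 to 0.32. Without tetracycline, CSTF2T fell by 1.06 on the log2 scale (SE 0.24, adjusted p 0.022), from 43.95 ± 12.85 to 20.8 ± 3.59 CPM (SD, n = 2). That call was lost without the first FLP library (adjusted p 0.43) or the first RPRD1B_FL library (adjusted p 0.33).

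For each member, the genes whose level followed it most closely over the 16 HEK293T libraries were found by Pearson's r of log2(CPM + 1) among the 8793 genes whose mean was at least 10 CPM. The libraries share their control, their batches and their depth, and r is a description with no test. The HEK293T levels and calls given below for these genes come from the same 16 libraries. They follow in part from how the genes were picked and are no separate support. TOR3A, an ATPase gene of the endoplasmic reticulum, had r = 0.95 with RPRD2. GIPC1, an adaptor of membrane traffic, had r = 0.90 with RPRD1B, followed by SERPINH1 at 0.86 and ABI2 at 0.84. PHACTR2 had r = 0.89 with RPRD1A, followed by SMAD5 at 0.83 and NETO2 at 0.81. For RPRD2 the next genes were GATAD2B at 0.78 and SERTAD3 at 0.76.

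TOR3A was at 286 and 278 CPM in the control and at 218 to 269 CPM in the silenced groups that do not name RPRD2. In the 4 groups that name RPRD2 it was at 139 to 206 CPM. It was called beside RPRD2 in the comparison of groups that name RPRD2 with those that do not, with a log2 fold change of -0.65 (edgeR's adjusted p 0.0026), where 0.0169% of the tested genes were called. PHACTR2 was at 22.8 to 32.02 CPM in the groups that name RPRD1A and at 33.3 to 45.85 CPM in the other libraries. It was called in the comparison of groups that name RPRD1A, as were NETO2 and SMAD5, with log2 fold changes of -0.67, -0.52 and -0.56 (edgeR's adjusted p 0.022, 0.046 and 0.022). These calls depended on single libraries: of 16 fits that each left out 1 library, PHACTR2 and SMAD5 were not called in 11 and NETO2 in 14. In the 3 silenced groups that do not name RPRD1A, PHACTR2 was at 39.4 to 45.85 CPM, within or above the control range of 33.3 to 44.5 CPM. SMAD5 was at 88.1 to 102 CPM there, with both RPRD2_KD libraries (90.97 and 88.2 CPM) below both controls (94.6 and 108 CPM). NETO2 was at 87.8 to 108 CPM, with both RPRD1B_KD libraries (90.98 and 89.97 CPM) below both controls (92.4 and 91.2 CPM). For TOR3A, PHACTR2, SMAD5 and NETO2, the share of all tested genes with libraries placed in these ways was not computed. In the Flp-In cells, RPRD1A fell in RPRD1B_FL_TET against FLP_TET, while PHACTR2 was at 0.29 (SE 0.26), SMAD5 at -0.005 (SE 0.17) and NETO2 at -0.10 (SE 0.16). With against without tetracycline in the RPRD1B_FL line, PHACTR2 was at -0.35 (SE 0.25), SMAD5 at -0.10 (SE 0.17) and NETO2 at -0.19 (SE 0.16), and none was called in either comparison.

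GIPC1 was called in the groups labelled with RPRD1B and in the group labelled RPRD1A_RPRD1A_KD, where it was at 62.5 and 68.6 CPM against 192.9 and 173.5 CPM in the control. In RPRD1B_KD it was at 54.2 and 46.3 CPM. Where RPRD1B was raised, GIPC1 was at 245 and 240 CPM in RPRD1B_FL_TET and at 183.5 and 212.7 CPM in FLP_TET. The log2 fold change, 0.27 (SE 0.15), was not called.

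**Figure D5:**
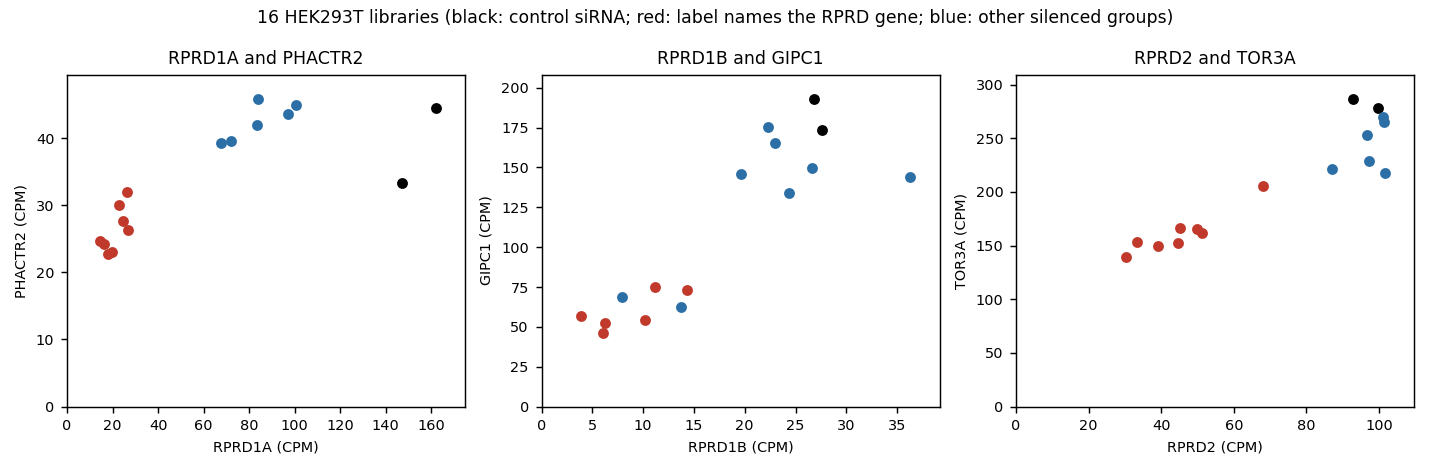
Level in CPM of PHACTR2, GIPC1 and TOR3A (vertical axes) against RPRD1A, RPRD1B and RPRD2 (horizontal axes) in the 16 HEK293T libraries. Black points are controls, red points groups whose label names the RPRD gene and blue points the other silenced groups. The blue RPRD1A points at 67.6 to 100.5 CPM have PHACTR2 levels of 39.4 to 45.85 CPM, and the 2 blue points among the red RPRD1B points are the group labelled RPRD1A_RPRD1A_KD.

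The genes most like the other members had lower r values or leaned on 1 library. HOXC13, ZMYM6 and IQCB1 had r = 0.88, 0.88 and 0.87 with PCF11, which became 0.70, 0.62 and 0.59 without the second RPRD1A_RPRD2_KD library. CBL, RGS14 and HOXD9 had r = 0.82, 0.82 and 0.80 with SCAF4, and 0.77, 0.76 and 0.84 without that library. OLIG2, ATXN1L and DLL1 had r = 0.81, 0.80 and 0.80 with SCAF8, and 0.73, 0.74 and 0.75 without it. None of these genes was another member or belonged to the lists of CTD enzymes or cleavage factors.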

How the data were processed

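The deposited tables give a raw count per gene name for each library, 58138 names and 5 closing rows of unassigned reads, which took 30.4% to 48.5% of the reads and were left out. The submitters' processing notes name FastQC, STAR, HTSeq, DESeq2 and GRCh38, and versions and settings are not given in the sources used here. Positions, GC content and coding sequences came from GENCODE 29 on GRCh38, in which 54848 names matched once. No columns of other samples were present.

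Each cell line was fitted on its own across all its groups with edgeR 4.0.16 (quasi-likelihood, TMM scaling, R 4.3.3, limma 3.58.1), after filterByExpr with a minimum count of 10 and a minimum total of 15. P-values were adjusted by Benjamini-Hochberg over all tested genes, and a gene was called at an adjusted p under 0.05. Intervals are at 95%. Levels in CPM use TMM factors over all 24 libraries jointly, so ratios of levels can differ slightly from the fits. Floors cover counting error only, since reads carry no molecular identifiers here.

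The members, gene lists and tests were chosen with earlier results of these data known. The genes named are the 6 members, CHERP and U2SURP, and up to 3 called genes of each list per comparison with the largest change. Where a list had none called, its gene with the largest change was named for the mean of the 7 silenced groups and for RPRD1B_FL_TET against FLP_TET. Up to 3 genes with the highest r were named per member. Neighbours are the 5 nearest tested genes on either side. Alternatives were DESeq2 1.42.0, scaling by RLE, no filter or a mean count of 50 or more, the replicate number as a block, a GC correction (lowess, span 0.3), fits of the compared groups only, and libraries left out. The contrasts of silenced groups that do not name a gene with the control were added after the data were seen. The result for 1 listed marker gene is not reported here.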

Additional observations from a re-analysis of the deposited data

How the results depend on the processing

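Of 2013 alternative log2 fold changes, 1821 kept their direction and their side of the threshold, 82 changed sign, 48 passed the threshold where the main value did not and 62 no longer passed it. The cause of these changes was not tested. With 2 libraries a group and few counts for SCAF4 and RPRD1B, depth limits what can be detected for those members.

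The replicate numbers were not taken as pairs, since the labels do not say that a number marks a shared batch and not every correlation was over 0.1. Same-numbered libraries deviated together in HEK293T (mean r 0.33 over 28 pairs of groups, -0.01 to 0.52, 26 over 0.1) and not in Flp-In (mean r -0.02 over 6 pairs, -0.36 to 0.46). The HEK293T pairs not over 0.1 were RPRD1A_RPRD2_KD with the control (-0.01) and with RPRD2_KD (0.05). RPRD1A_RPRD2_KD is the group of the library that stood apart. With the replicate block, the number of members called went from 0 to 1 in RPRD1B_KD, from 1 to 2 in RPRD1A_RPRD2_KD and from 1 to 3 in RPRD1B_RPRD2_KD. The same 3 counts came with the GC correction and block together and with no filter on low counts. With the block and RPRD1A_RPRD2_KD replicate 2 left out, the numbers were 2 in RPRD1B_KD, RPRD2_KD, RPRD1A_RPRD1A_KD and RPRD1A_RPRD2_KD, and 3 in RPRD1B_RPRD2_KD and RPRD1A_RPRD1B_RPRD2_KD. DESeq2 called 2 in RPRD1A_RPRD2_KD, and a fit of only the compared groups 0 in RPRD1B_RPRD2_KD.

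RPRD1A in silenced groups that do not name it became called at -0.907 with the block (edgeR's adjusted p 0.011), -0.944 with GC correction and block (0.0032), -0.884 without a filter (0.0037) and -0.907 with the block and RPRD1A_RPRD2_KD replicate 2 left out (3.538e-08). The adjusted p ranged up to 0.9995, without the second control library. In groups naming RPRD1B, RPRD1A was called at 0.487 with the block and that library left out (0.0098).

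Signs changed with the GC correction, without and with the block, for RPRD2 in RPRD1B_KD (-0.0206, -0.0236), PCF11 in RPRD2_KD (-0.00968, -0.00779), RPRD2 in RPRD1A_RPRD1A_KD (-0.0149, -0.0138), RPRD2 in RPRD1B_FL against FLP (0.0315, 0.0311), SCAF8 in RPRD1B_FL_TET against RPRD1B_FL (0.0145, 0.0166) and RPRD1A in FLP_TET against FLP (0.172, 0.171), and with both for PCF11 in RPRD1B_RPRD2_KD (-0.0041). Without a filter they changed for SCAF8 in RPRD1A_RPRD1A_KD (0.0195) and RPRD1A_RPRD1B_RPRD2_KD (0.0103), RPRD2 where it is not named (0.0147) and RPRD1A in FLP_TET against FLP (0.00669), and at a mean count of 50 or more for SCAF8 in the first 2 of these (0.00117, 0.000377). With the block and RPRD1A_RPRD2_KD replicate 2 left out they changed for SCAF4 in RPRD1A_RPRD2_KD (0.0622), RPRD1B in groups naming RPRD1A (-0.0154), PCF11 and SCAF4 in groups naming RPRD1B (-0.0256, -0.0352) and PCF11 in groups naming RPRD2 (0.000941). With RPRD1A_RPRD1A_KD in neither side, RPRD2 in groups naming RPRD1B was at 0.0473. SMAD5 in RPRD1B_FL_TET against FLP_TET was at 0.0087 with RLE size factors and 0.00909 with DESeq2.

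Leaving out single libraries gave these ranges of log2 fold change where a sign changed. Against the control they were -0.18 to 0.0581 (RPRD2) and -0.12 to 0.0487 (SCAF8) in RPRD1A_KD, -0.0335 to 0.0504 (RPRD2) and -0.407 to 0.167 (SCAF8) in RPRD1B_KD, and -0.173 to 0.41 (RPRD1B), -0.188 to 0.196 (PCF11) and -0.156 to 0.0952 (SCAF4) in RPRD2_KD. They were -0.0913 to 0.0887 (SCAF8) in RPRD1A_RPRD1A_KD, -0.889 to 0.0213 (PCF11) and -1.1 to 0.198 (SCAF4) in RPRD1A_RPRD2_KD, -0.231 to 0.0958 (SCAF4) in RPRD1B_RPRD2_KD and -0.0809 to 0.0816 (SCAF8) in RPRD1A_RPRD1B_RPRD2_KD. In the mean of the 7 groups they were -0.0395 to 0.0887 (PCF11), -0.15 to 0.0127 (SCAF8) and -0.0582 to 0.142 (CHERP). In groups naming RPRD1A they were -0.167 to 0.256 (RPRD1B) and -0.0367 to 0.191 (PCF11), in groups naming RPRD1B -0.0278 to 0.155 (PCF11) and -0.129 to 0.225 (SCAF4), and in groups naming RPRD2 -0.31 to 0.0716 (RPRD1B), -0.215 to 0.011 (PCF11) and -0.135 to 0.00878 (SCAF8). RPRD2 where it is not named ranged from -0.0474 to 0.0344. In Flp-In cells they were -0.155 to 0.253 (PCF11), -0.0996 to 0.627 (PHACTR2) and -0.135 to 0.122 (SMAD5) in RPRD1B_FL_TET against FLP_TET, -0.386 to 0.185 (SCAF8) in RPRD1B_FL against FLP, -0.296 to 0.109 (PCF11) and -0.224 to 0.0894 (SCAF8) in RPRD1B_FL_TET against RPRD1B_FL, -0.204 to 0.182 (RPRD1A) in FLP_TET against FLP and -0.0514 to 0.00845 (RPRD2) in the difference of tetracycline effects. The number of members called ranged from 0 to 1 in RPRD2_KD, RPRD1B_RPRD2_KD and RPRD1B_FL_TET against RPRD1B_FL, and from 1 to 2 in RPRD1A_RPRD2_KD and RPRD1B_FL_TET against FLP_TET.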
